A study of Mus musculus with 8 samples.

Results

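The 6 conventional actin genes of the mouse, Acta1, Actc1, Acta2, Actg2, Actb and Actg1, were taken by symbol from a table of 54532 genes, and all 6 were found. RNA was sequenced from heart tissue of C57BL/6 mice in 4 groups of 2 libraries each. WT sham is wild type after sham surgery, WT TAC is wild type after TAC, Cko sham is Piezo1-Cko after sham surgery, and Cko TAC is Piezo1-Cko after TAC. TAC usually stands for transverse aortic constriction, which narrows the aorta and loads the left ventricle with pressure, and Piezo1 encodes a mechanically gated cation channel. The labels give no age, no time after surgery, and neither the cells nor the exons in which the Piezo1-Cko allele acts. Whether each library is its own animal is not stated either, and a p-value then measures only how far these samples lie apart, which may be technical.

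Actin is the protein of the thin filament in muscle and of the cytoskeleton in all cells. Each of the 6 genes encodes a nearly identical protein, and the genes differ mainly in where they are used. Actc1 (cardiac alpha-actin) and Acta1 (skeletal alpha-actin) build the sarcomere of striated muscle, Acta2 (alpha smooth muscle actin) and Actg2 (gamma smooth muscle actin) build the contractile filaments of smooth muscle, and Actb and Actg1 (beta- and gamma-cytoplasmic actin) form the cytoskeleton of most cell types. In the adult rodent heart Actc1 is the main sarcomeric actin, Acta1 is known as a gene of the fetal heart that is used again under pressure load, and Acta2 marks vascular smooth muscle and activated fibroblasts.

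The coding sequences were alike enough that the first question was whether reads can be assigned to 1 gene. Over 1128 aligned coding bases, the pairs shared 81.6% to 88.7% of bases, with Actb and Actg1 the most alike and the sarcomeric pair Acta1 and Actc1 at 86.2%. The last 90 coding bases, stop codon included, are printed from the GENCODE M21 transcripts to show how the differences are spread, with capitals where a base differs from Actc1.
Actc1: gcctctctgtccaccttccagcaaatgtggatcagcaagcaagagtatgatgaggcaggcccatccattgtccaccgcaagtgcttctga
Acta1: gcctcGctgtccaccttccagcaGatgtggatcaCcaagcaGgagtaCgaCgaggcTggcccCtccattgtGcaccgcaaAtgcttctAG
Acta2: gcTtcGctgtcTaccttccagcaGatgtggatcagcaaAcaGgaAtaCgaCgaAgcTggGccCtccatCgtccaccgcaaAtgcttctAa
Actg2: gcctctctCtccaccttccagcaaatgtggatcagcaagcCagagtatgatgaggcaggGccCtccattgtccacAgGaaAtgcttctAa
Actb: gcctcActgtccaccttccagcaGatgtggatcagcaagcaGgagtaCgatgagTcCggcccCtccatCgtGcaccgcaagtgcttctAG
Actg1: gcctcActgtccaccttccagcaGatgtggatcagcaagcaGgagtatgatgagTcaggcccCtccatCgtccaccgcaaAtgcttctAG
In this stretch Acta1 differed from Actc1 at 12 bases, Acta2 at 16, Actg2 at 8, Actb at 11 and Actg1 at 9. When each transcript was read in windows of 50 bases, none of the windows of Actc1 or Actg2 occurred in a transcript of another gene, and 2.22% of those of Acta1, 0.352% of those of Acta2, 14.2% of those of Actb and 56.7% of those of Actg1 did. With windows of 150 bases, 43.5% of those of Actg1 were shared and none of the other 5 genes' were. Other actins left out, 16 genes shared windows of 50 bases with Actb and 19 with Actg1, and the deposited table gives 13 and 11 of them a pseudogene biotype. How the authors' counting treated a read with several matches is not given in the sources used here, so Actg1, and to a lesser degree Actb, are uncertain on this point. The listed pseudogenes with 50-base matches held reads equal to 0.826% to 1.55% of those of Actg1 and 0.403% to 0.818% of those of Actb. With other genes included and actins left out, genes with such matches held 928 to 1467 reads per library, over their whole length, for Actb and for Actg1. Actb itself held 7683 to 15293 reads and Actg1 3754 to 8632. The protein-coding Lrrc58 shared the most windows with Actb (9.57%).

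All 6 genes lie on the minus strand and are protein-coding. In the table's coordinates, which for 5 of the 6 equal those of GENCODE M21 (GRCm38, the build also called mm10), Acta1 is at chr8:123891769-123894751, Actc1 at chr2:114047282-114053548, Actg2 at chr6:83512905-83536265, Actb at chr5:142903115-142906754 and Actg1 at chr11:120345690-120348542. Acta2 is at chr19:34241090-34255336 in the table, and its GENCODE M21 model ends at 34255590. Actc1 overlaps A530058N18Rik on the other strand, which had at most 0.354 FPKM, and Acta1 overlaps Gm20388 on the other strand, listed at 0 in all 8 libraries.

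The muscle actin promoters are known targets of serum response factor (SRF), which binds the CArG box, a pair of Cs and a pair of Gs on either side of a run of A or T. RefSeq promoter sequences (GRCm38.p6) were at hand for 4 of the 6 genes. Of these, 3 held a CArG box that matched this pattern exactly in the 250 bases before the RefSeq start. Only exact matches were searched for, so a box that departs from the pattern would be missed, in Acta2 as in the others. The 3 are printed, with annotated exon bases left out and the CArG box in capitals, because both genes of the sarcomeric pair hold the box and 1 of them passed after TAC.
Acta1, chr8:123894776-123895025, minus strand: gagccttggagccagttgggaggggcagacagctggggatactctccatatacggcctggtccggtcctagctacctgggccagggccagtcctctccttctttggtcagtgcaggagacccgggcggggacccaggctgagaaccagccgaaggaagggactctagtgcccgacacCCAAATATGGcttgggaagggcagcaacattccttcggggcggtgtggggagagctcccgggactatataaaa
Actc1, chr2:114052888-114053125, minus strand: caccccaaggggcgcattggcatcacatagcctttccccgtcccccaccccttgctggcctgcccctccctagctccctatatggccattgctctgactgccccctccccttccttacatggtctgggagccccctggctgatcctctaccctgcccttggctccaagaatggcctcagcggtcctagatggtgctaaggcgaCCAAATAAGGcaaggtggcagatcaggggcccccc
Actg1, chr11:120348543-120348745, minus strand: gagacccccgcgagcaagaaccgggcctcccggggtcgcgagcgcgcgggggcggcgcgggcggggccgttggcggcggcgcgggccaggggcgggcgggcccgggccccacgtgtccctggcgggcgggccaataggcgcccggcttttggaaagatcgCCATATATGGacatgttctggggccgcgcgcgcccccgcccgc
The box began 73 bases before the start in Acta1, 47 in Actc1 and 90 in Actg1, and 1.47% of all 32851 promoter windows of this length held one on either strand. The Acta1 promoter also held CATTCC, the core of the MCAT element bound by TEAD factors, beginning 46 bases before the start (12.6% of all windows). CATTCC was also found in the Acta2 window, 146 bases before the start, and not in those of Actc1 and Actg1. GENCODE M21 has the 217 bases next to the RefSeq start of Acta2 in an exon. This match, and most of the Acta2 window that was searched, thus lie in annotated exon. TATAAA began 7 bases before the start of Acta1 (12.4% of all windows) and was not found in the windows of the other 3 genes. The RefSeq start of Acta1, 123894775, lies upstream of the gene model given above, which on the minus strand begins at 123894751. Counted from that model, the Acta1 distances would be longer. For Actc1 and Actg1 the RefSeq start lies inside the gene model. A match is a description of the letters and shows no binding.

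The deposited values were FPKM (fragments counted per kilobase of gene and relative to a scaled library size), from which whole reads were recovered: 15574769 to 17313084 per library. The 6 actins together held 0.747% to 0.901% of the reads in the 4 sham libraries and 1.08% to 1.19% in the 4 TAC libraries. Genes were tested with limma on log2(FPKM + 0.5) over 13928 genes that passed a filter on low values. All 6 actins passed it. Fold changes are on that scale, which understates the change of low genes, and a gene passed where its adjusted p was under 0.05. Piezo1 had 2.35 and 3.09 FPKM after sham and 5.38 and 5.83 after TAC in WT, and 3.83 and 3.23 after sham and 5.24 and 3.89 after TAC in Piezo1-Cko. Its total was thus not lower in Cko sham than in WT sham. A total over all cells and exons does not check a deletion limited to some of them, so each statement on genotype rests on the labels. A pair of libraries stood apart from the rest. WT sham replicate 1 held the atrial light chains Myl7 at 394 FPKM and Myl4 at 40.4, against at most 0.443 and 1.12 in the other 7 libraries. In WT TAC replicate 1 the B and plasma cell markers summed to 308 FPKM, against 12.0 to 35.9 elsewhere. Results that rest on these libraries are given with and without them. Both are WT, so a fit without both leaves 1 library in each WT group. Its spread within groups then comes from the Piezo1-Cko libraries alone. A fit with 1 library left out likewise leaves 1 library in that group. The labelled tissue was checked on 10 cardiomyocyte markers, each at 12.3 FPKM or more in every library.

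Actc1 was the main actin transcript of these hearts in all 8 libraries, and Actg2 was the lowest. Per kilobase of gene, Actc1 had 3937 to 5468 FPKM and made up 82.2% to 91.4% of the summed FPKM of the 6 genes in the sham libraries and 72.4% to 80.9% in the TAC libraries. Actb came next in all 4 sham libraries, with 202 to 267 FPKM. In the 4 TAC libraries Acta1 held that place, with 745 to 1154 FPKM, and Actb followed at 200 to 310. Acta1, Acta2 and Actg1 took places 3 to 5 in the sham libraries in no fixed order, since their ranges of 48.7 to 189, 57.0 to 258 and 96.4 to 137 FPKM overlapped. Acta2 and Actg1 shared places 4 and 5 in the TAC libraries, at 81.4 to 153 and 126 to 176 FPKM. Actg2 had 0.838 to 9.78 FPKM, from 20 to 216 reads.

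**Figure D1:**
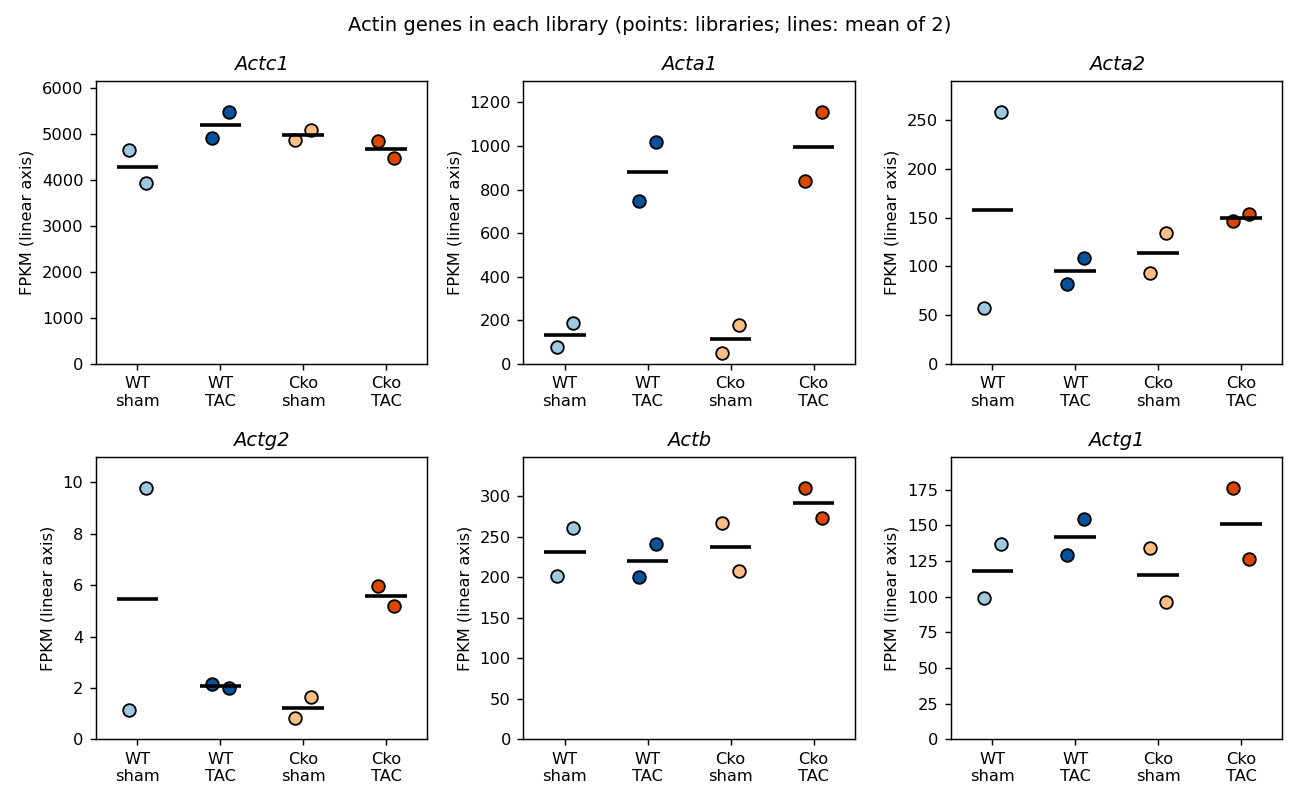
FPKM of the 6 actin genes (linear axes from 0, each with its own scale) in the 4 groups; points are the libraries and lines the mean of 2. The 4 TAC libraries of Acta1 sit between 745 and 1154 FPKM, above the sham libraries at 48.7 to 189, while Actc1 stays between 3937 and 5468 FPKM in all groups.

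Acta1 was the actin that rose after TAC. It had 75.5 and 189 FPKM after sham and 745 and 1018 after TAC in WT, and 48.7 and 177 after sham and 841 and 1154 after TAC in Piezo1-Cko. Every TAC library was above every sham library in both genotypes, although the sham libraries of a group differed from each other 2.51-fold in WT and 3.63-fold in Cko, more than the TAC libraries did (1.37-fold in each genotype). In the comparison averaged over both genotypes, TAC raised Acta1 8.75-fold (log2 fold change 3.13, SE 0.44, 95% interval 2.09 to 4.16, limma adjusted p = 0.00563, higher in 4 of 4 TAC libraries). By size this was place 6 of the 13928 genes, counted from the largest rise. Acta1 passed whichever library was left out, with log2 fold changes of 2.67 to 3.59 and a largest adjusted p of 0.0205, and it passed without both libraries that stood apart (2.91, adjusted p = 0.0258). In this comparison 1 of the 6 actins passed, and 25.4% of all tested genes did. The libraries of TAC and sham did not overlap for 1 of the 6, against 27.7% of all tested genes.

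Within each genotype the size was similar and the call less firm. In WT, Acta1 was 7.26-fold higher after TAC (log2 fold change 2.86, SE 0.63, limma adjusted p = 0.0313), place 13 among rises. In Piezo1-Cko it was 10.5-fold higher (log2 fold change 3.40, SE 0.63), and its limma adjusted p of 0.0514 missed the threshold. In WT 1 of 6 actins passed, against 13.2% of all tested genes, and in Piezo1-Cko 0 of 6 passed, against 1.49%. At an unadjusted p under 0.05 the Piezo1-Cko count was 2 of 6, Acta1 and Actg2, against 3036 of the 13928 tested genes. The WT call was lost without any 1 of the 4 WT libraries, with log2 fold changes of 2.20 to 3.52. Without both libraries that stood apart, which leaves 1 library in each WT group, the log2 fold change was 2.43. The Piezo1-Cko value passed without WT TAC replicate 1 or WT TAC replicate 2 (adjusted p = 0.0486 in each case) and without both libraries that stood apart (adjusted p = 0.0449). The 2 responses were compared directly by the interaction, in which the WT response is subtracted from that of Piezo1-Cko. For Acta1 it was 0.54 on the log2 scale (SE 0.89, 95% interval -1.53 to 2.61, limma adjusted p = 0.952), so a difference between the genotypes of several-fold in either direction lies within the interval.

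**Figure D2:**
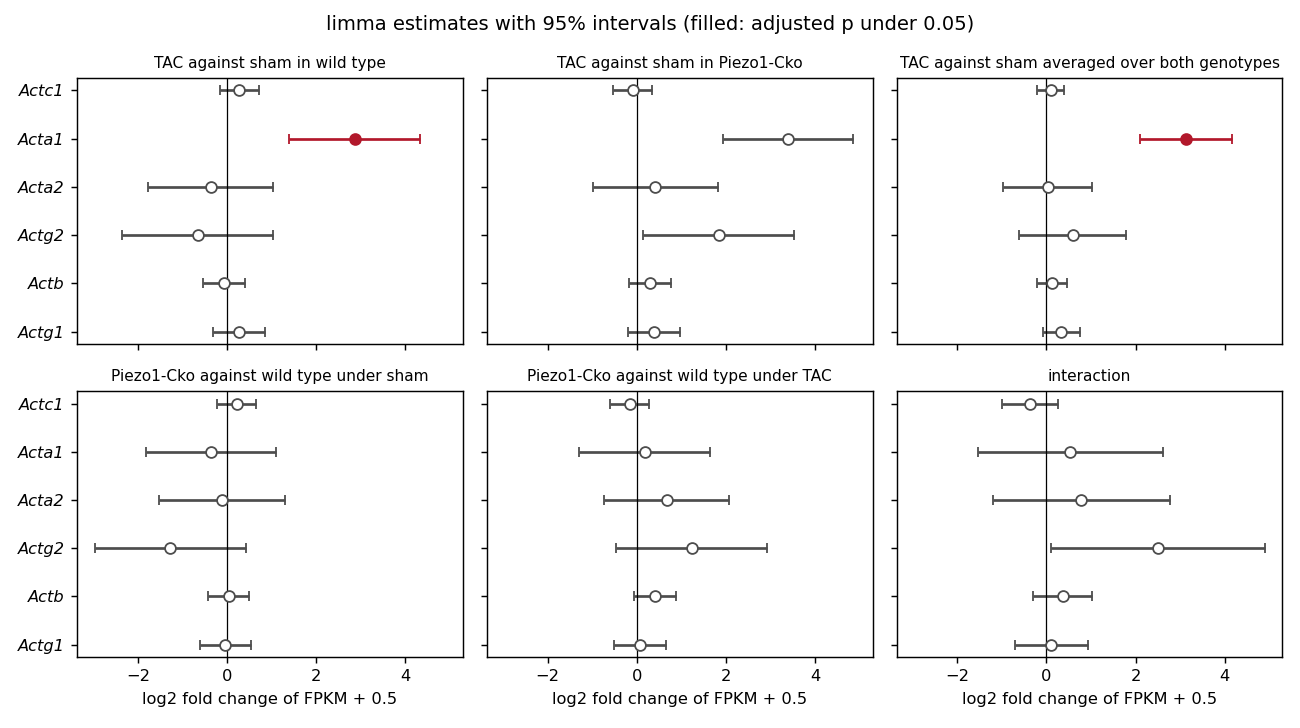
limma log2 fold changes of FPKM + 0.5 for the 6 actins (rows) in 6 comparisons (panels), with 95% intervals; filled red points passed an adjusted p of 0.05. Acta1 passed in WT (2.86) and averaged over both genotypes (3.13), and in the 3 panels that compare the genotypes no actin passed.

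Actc1, the partner of Acta1 in the sarcomere, did not pass in any comparison. It had 4644 and 3937 FPKM after sham and 4911 and 5468 after TAC in WT, and 4866 and 5075 after sham and 4843 and 4484 after TAC in Piezo1-Cko. Both WT TAC libraries were above both WT sham libraries, and both Cko TAC libraries were below both Cko sham libraries, by small margins. Over both genotypes the log2 difference averaged 0.09 (95% interval -0.22 to 0.40, limma adjusted p = 0.637). The intervals of the single genotypes were -0.16 to 0.72 in WT and -0.53 to 0.35 in Piezo1-Cko, and neither passed (limma adjusted p = 0.334 and 0.814).

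The make-up of the sarcomeric actin transcripts differed between surgeries. Acta1 as a share of Acta1 and Actc1 together, both per kilobase, was 1.60% and 4.58% after sham and 13.2% and 15.7% after TAC in WT, and 0.992% and 3.37% after sham and 14.8% and 20.5% after TAC in Piezo1-Cko. The sham libraries averaged 2.64% ± 1.64 (SD, n = 4) and the TAC libraries 16.0% ± 3.13 (SD, n = 4), and the 2 sets did not overlap. Leaving out any 1 library kept the sham mean at 1.99% to 3.19% and the TAC mean at 14.6% to 17.0%. In other terms, Actc1 was 20.8 to 99.8 times as high as Acta1 in the sham libraries and 3.89 to 6.59 times as high in the TAC libraries. The sum of the pair was 4126 to 5253 FPKM in the sham libraries and 5638 to 6486 in the TAC libraries. These shares hold the same Acta1 and Actc1 values as the fold changes and are no separate evidence.

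**Figure D3:**
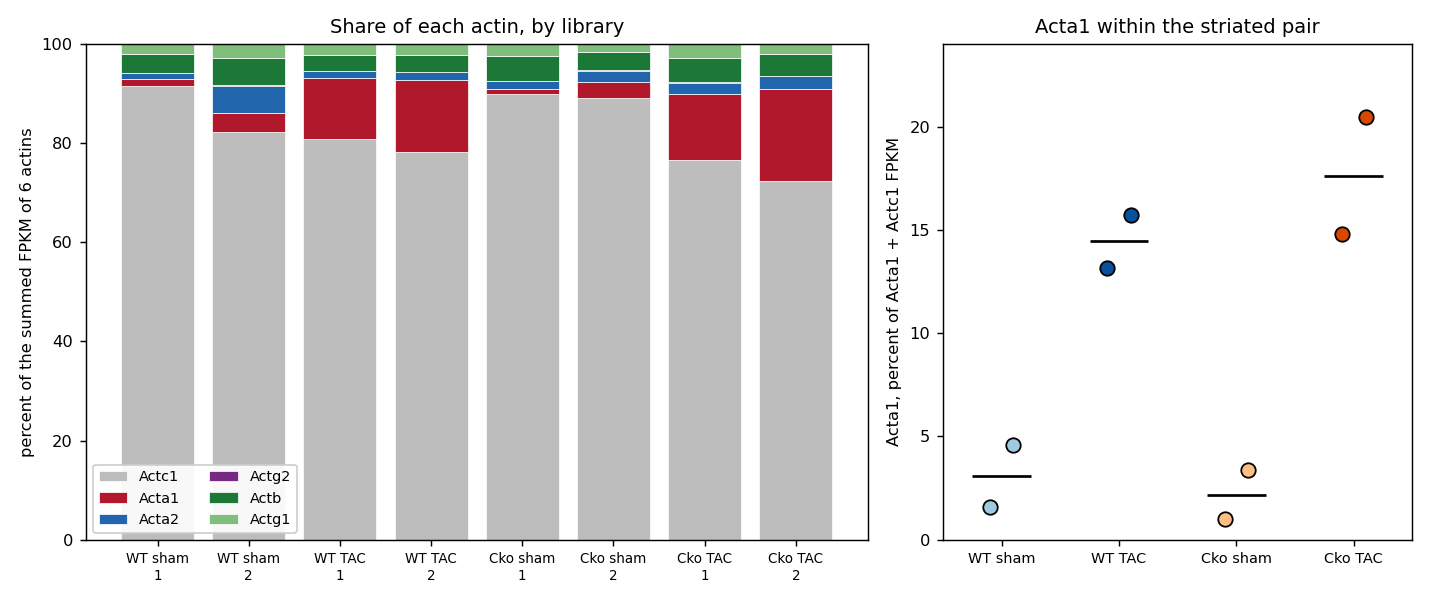
Left, each actin as a percent of the summed FPKM of the 6 genes in each library (stacked bars from 0 to 100); right, Acta1 as a percent of Acta1 plus Actc1 (points are libraries, lines the mean of 2). The sham libraries lie at 0.992% to 4.58% and the TAC libraries at 13.2% to 20.5% on the right.

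Levels in whole tissue mix cell types, and fewer cells of a type and less RNA per cell cannot be told apart. The 10 cardiomyocyte markers summed to 21997 to 25466 FPKM in the sham libraries and 11685 to 15481 in the TAC libraries. Of the 10, 7 fell in the averaged comparison, against 13.5% of all tested genes, and fewer did so without both libraries that stood apart. The median log2 fold change of the 10 was -0.69, against 0.01 over all tested genes. Acta1 rose in the libraries where these 7 were lower, while Actc1 did not pass in either direction. Acta1 is also the main actin of skeletal muscle, so 14 skeletal muscle markers were read in the same libraries. They summed to 5.43 to 9.19 FPKM in the sham libraries and 11.2 to 18.7 in the TAC libraries. Without 1 gene, Mybpc2, the other 13 summed to 2.96 to 5.42 FPKM in the sham libraries and 1.54 to 3.49 in the TAC libraries. The fast myosin gene Myh4 and the troponin gene Tnnc2 were at 0 in all 8 libraries, and Myh1, Myh2, Myh3 and Myh8 did not exceed 0.0395 FPKM. Of 5 skeletal markers that could be tested, 1 rose, against 11.9% of all tested genes. It was Mybpc2, a myosin-binding protein C, with 2.08 to 4.84 FPKM in the sham libraries and 9.69 to 15.2 in the TAC libraries (3.10-fold, limma adjusted p = 0.00288). The other 4 did not pass, with log2 differences of -1.03 for Mylpf, -0.38 for Tnni2, -0.22 for Pvalb and 0.50 for Tnnt3 (limma adjusted p = 0.0541, 0.155, 0.822 and 0.254).

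Acta1 was set beside the genes of the fetal cardiac programme, of which 5 of 7 could be tested. Of these, 3 rose in the averaged comparison, against 11.9% of all tested genes. The median log2 fold change of the 5 was 1.47, against 0.01 over all tested genes. Myl4 went the other way and did not pass (-1.11, limma adjusted p = 0.433). Without both libraries that stood apart the log2 differences were 2.23 for Ankrd1, 2.41 for Nppa, 0.94 for Nppb, 0.91 for Myh7 and 0.0016 for Myl4. Ankrd1, a stretch-responsive sarcomere protein, rose 5.87-fold (limma adjusted p = 0.00362). Nppa, the atrial natriuretic peptide, rose 7.32-fold (limma adjusted p = 0.00407). Both passed whichever library was left out, while Nppb, the brain natriuretic peptide, rose 2.59-fold (limma adjusted p = 0.0235) and lost its call without WT sham replicate 1, WT TAC replicate 1, Cko sham replicate 2 or Cko TAC replicate 1 (adjusted p up to 0.0800). Myh7, the slow myosin heavy chain, had 24.6 and 24.9 FPKM after sham and 266 and 56.7 after TAC in WT, and 15.6 and 13.7 after sham and 32.5 and 16.6 after TAC in Piezo1-Cko. Its highest value by far was in WT TAC replicate 1, and its limma adjusted p of 0.0503 missed the threshold. Acta1 differed from Myh7 in pattern, since its highest value was in Cko TAC replicate 2 and its TAC libraries lay within 745 to 1154 FPKM.

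**Figure D4:**
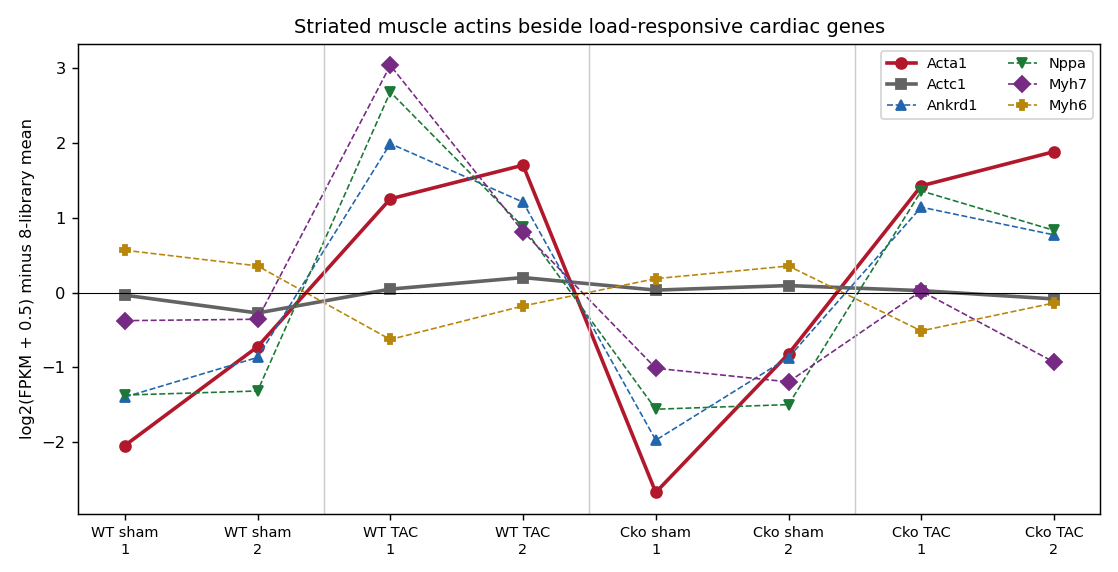
log2(FPKM + 0.5) minus the gene's mean over 8 libraries for Acta1, Actc1, Ankrd1, Nppa, Myh7 and Myh6 (1 line per gene, 1 position per library). Acta1, Ankrd1 and Nppa are above 0 in the 4 TAC libraries and below 0 in the 4 sham libraries, Actc1 stays near 0, and Myh7 peaks in WT TAC replicate 1.

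Over the 8 libraries, the genes whose pattern was most like that of Acta1 among 10676 candidates were Ankrd1, Serpina3n (a secreted serine protease inhibitor) and Mki67 (a marker of dividing cells). Likeness was the root mean square difference of the log2 values after centring each gene, which was 0.62, 0.68 and 0.74 in that order. The same measure within the family was 1.45 or more between Acta1 and any other actin, with Actc1 at 1.65.

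The smooth muscle actins Acta2 and Actg2 differed most between the WT sham libraries. Acta2 had 57.0 and 258 FPKM after sham and 81.4 and 108 after TAC in WT, and 93.5 and 135 after sham and 147 and 153 after TAC in Piezo1-Cko. WT sham replicate 1 was the lowest of all 8 libraries and WT sham replicate 2 the highest, a 4.53-fold difference within 1 group. The log2 difference between TAC and sham averaged 0.02 over both genotypes (95% interval -0.97 to 1.02, limma adjusted p = 0.971), so a change of 2-fold was not detectable here. In WT the log2 difference was -0.37 (limma adjusted p = 0.699). It turned to 0.72 without WT sham replicate 2, and without WT sham replicate 1 it was -1.45 and passed (adjusted p = 0.0492). In Piezo1-Cko it was 0.42 (limma adjusted p = 0.734), with both TAC libraries above both sham libraries.

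Actg2 had 1.13 and 9.78 FPKM after sham and 2.18 and 2.00 after TAC in WT, and 0.838 and 1.64 after sham and 5.96 and 5.20 after TAC in Piezo1-Cko. Here too WT sham replicate 2 was the highest library, 8.66 times WT sham replicate 1. The Cko TAC libraries were above the Cko sham libraries (log2 fold change 1.84, SE 0.72, limma unadjusted p = 0.0366, adjusted p = 0.195), which did not pass. It passed without WT sham replicate 1 (adjusted p = 0.0417), without WT sham replicate 2 (adjusted p = 0.0419) and without both libraries that stood apart (adjusted p = 0.0311), fits that leave the 4 Piezo1-Cko libraries and their difference as they were. In WT the log2 difference was -0.66 (limma adjusted p = 0.552). It was 0.67 without WT sham replicate 2, and -1.99 and passing without WT sham replicate 1 (adjusted p = 0.0437). The average over both genotypes was 0.59 (limma adjusted p = 0.423), and 1.26 without WT sham replicate 2, which passed (adjusted p = 0.0143). The interaction of Actg2 was 2.51 (95% interval 0.11 to 4.90, limma unadjusted p = 0.0425, adjusted p = 0.911), and it ranged from 1.18 to 3.83 with 1 library left out.

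The markers of smooth muscle were high and low in the same WT sham libraries. The 10 smooth muscle markers, none of them at 0 in any library, summed to 59.9 FPKM in WT sham replicate 1 and 130 in WT sham replicate 2, the lowest and highest of all 8 libraries. The other 6 libraries lay between 67.8 and 85.5 FPKM. Myh11, the smooth muscle myosin heavy chain, had 8.12 FPKM in WT sham replicate 1 and 36.2 in WT sham replicate 2. Cnn1, the actin-binding protein calponin, had 1.13 and 15.6. Of the 10 markers 1 fell in the averaged comparison, against 13.5% of all tested genes. It was Smtn (log2 fold change -0.48, limma adjusted p = 0.0470), which was lost without any of 6 libraries, WT sham replicate 1 and Cko TAC replicate 2 being the exceptions. Without both libraries that stood apart 2 of the 10 were lower, Lmod1 (-1.31, limma adjusted p = 0.0169) and Myh11 (-0.80, limma adjusted p = 0.0322), and Smtn did not pass (limma adjusted p = 0.0901). Lmod1 and Myh11 also passed as lower without WT sham replicate 1 alone (-1.22 and -0.82, limma adjusted p = 0.0119 and 0.0161). Cald1 and Cnn1 passed as higher without WT sham replicate 2 (0.75 and 1.41, limma adjusted p = 0.0255 and 0.0212), so these calls differed in direction with the WT sham library left out. The genes most like Acta2 in pattern were Tpm2, a tropomyosin that lies along the actin filament (0.13), Myh11 (0.20) and Rtp4 (0.21). For Actg2 they were Cnn1 (0.36), Oas1g (0.43) and Per2 (0.43). The part of smooth muscle content in the Acta2 and Actg2 values was not tested.

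**Figure D5:**
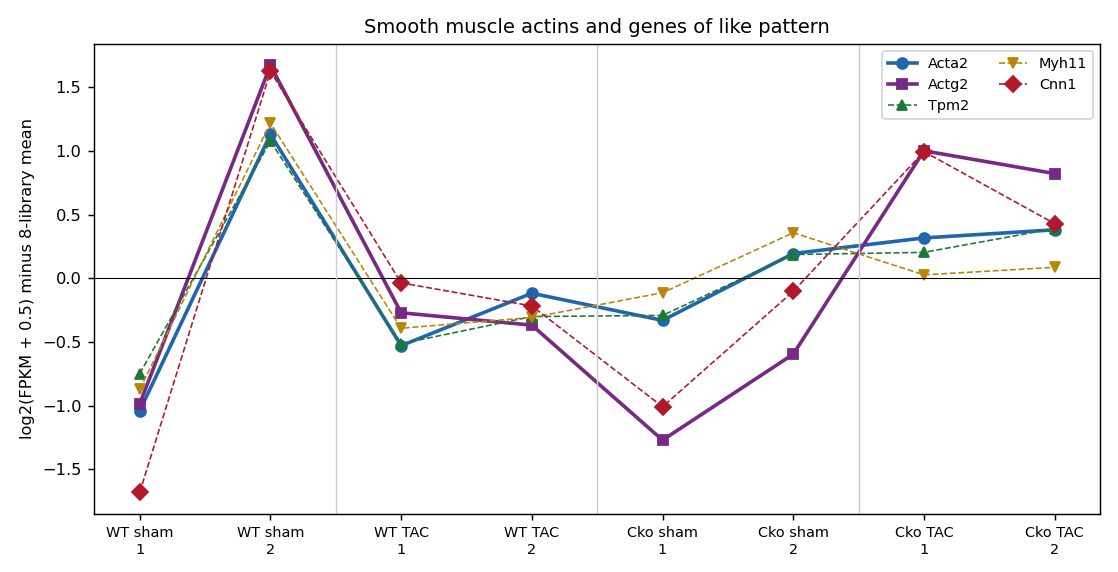
log2(FPKM + 0.5) minus the gene's mean over 8 libraries for Acta2, Actg2, Tpm2, Myh11 and Cnn1 (1 line per gene, 1 position per library). WT sham replicate 1 is low and WT sham replicate 2 is the highest library for all 5 genes.

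Acta2 is also a gene of activated fibroblasts, whose other markers were read beside it. In the averaged comparison, 13 of 16 activated fibroblast markers rose, with a median log2 fold change of 2.12. Of all tested genes 11.9% rose and 13.5% fell there. Cilp, Cthrc1, Ltbp2 and Thbs4 each lost the call with 1 library or another left out. The 16 markers summed to 94.0 to 187 FPKM in the sham libraries and 381 to 1189 in the TAC libraries. The Acta2 values of the TAC libraries, 81.4 to 153 FPKM, lay inside those of the sham libraries, 57.0 to 258. Of 8 pericyte markers 1 rose (Pdgfrb, log2 fold change 0.33, limma adjusted p = 0.0352) and 1 fell (Abcc9, -0.39, limma adjusted p = 0.0380). Neither passed without both libraries that stood apart.

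The cytoplasmic actins Actb and Actg1 did not pass in any comparison. Actb had 202 and 261 FPKM after sham and 200 and 241 after TAC in WT, and 267 and 207 after sham and 310 and 272 after TAC in Piezo1-Cko. The WT groups overlapped, and the Cko TAC libraries were above all others. The averaged log2 difference was 0.12 (95% interval -0.21 to 0.45, limma adjusted p = 0.560). Actg1 had 99.4 and 137 FPKM after sham and 129 and 155 after TAC in WT, and 134 and 96.4 after sham and 176 and 126 after TAC in Piezo1-Cko. Its groups overlapped in both genotypes, with a log2 difference of 0.33 (95% interval -0.08 to 0.74, limma adjusted p = 0.197). Neither gene passed in WT or in Piezo1-Cko, where the log2 differences were -0.06 and 0.30 for Actb and 0.28 and 0.39 for Actg1.

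Actb was 1.55 to 2.16 times as high as Actg1 per kilobase in all 8 libraries. The ratio was lowest in WT TAC, at 1.55 in both libraries, and 1.76 and 2.16 in Cko TAC, against 1.90 to 2.15 in the sham libraries. Of all pairs within the family these 2 were the most alike in pattern over the libraries (root mean square difference 0.18 on the log2 scale). The genes nearest to Actb were Eef1akmt4 (0.08), Rbm43 (0.08) and Rbm14 (0.09), those nearest to Actg1 were Tbc1d13 (0.09), Nap1l1 (0.10) and Ankfy1 (0.11), and those nearest to Actc1 were Fam13c, Cops3 and Wdr11 (0.06 each). Actc1, Actb and Actg1 themselves varied little (root mean square of 0.13, 0.22 and 0.27 around their means, against 1.68 for Acta1), so many genes that varied little lie as close. Macrophages also carry much cytoplasmic actin. Averaged over both genotypes 9 of 10 macrophage markers rose, against 11.9% of all tested genes, and fewer did so without both libraries that stood apart. Only some of these calls held whichever library was left out. The 10 markers summed to 445 to 512 FPKM in the sham libraries and 677 to 1053 in the TAC libraries. None of 8 endothelial markers passed in limma with all libraries, against 25.4% of all tested genes. Pecam1 passed as higher without both libraries that stood apart (0.42 on the log2 scale, limma adjusted p = 0.0497), and Pecam1 and Cdh5 did so without WT TAC replicate 1 alone (0.49 and 0.57, limma adjusted p = 0.0320 and 0.0445). The 8 markers summed to 250 to 472 FPKM in the sham libraries and 288 to 509 in the TAC libraries. The part of these cell types in the levels of Actb and Actg1 was not tested.

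No actin passed between the genotypes under either surgery. Under sham 0 of 6 passed in limma, against 0.0215% of all tested genes, and under TAC 0 of 6 passed, against 0% of all tested genes. None had an unadjusted p under 0.05 in either comparison, where 1069 and 1269 of all genes did. The Piezo1-Cko and WT libraries did not overlap for 1 of the 6 under sham (Actc1, against 39.6% of all tested genes) and for 4 of the 6 under TAC (Actc1, Acta2, Actg2 and Actb, against 39.8%). For Acta1 the log2 difference was -0.36 under sham (95% interval -1.82 to 1.10, limma adjusted p = 0.949) and 0.18 under TAC (95% interval -1.29 to 1.64, limma adjusted p = 0.940). Actb under TAC had the smallest unadjusted p of the family, with a log2 difference of 0.40 (95% interval -0.06 to 0.87, limma adjusted p = 0.583). For Actg2 the difference was -1.28 under sham (limma adjusted p = 0.779) and 1.23 under TAC (limma adjusted p = 0.632), and for Acta2 it was -0.11 and 0.67 (limma adjusted p = 0.987 and 0.733). In the interaction 0 of 6 passed in limma, against 0.00718% of all tested genes. There 1 of 6 had an unadjusted p under 0.05 (Actg2), against 664 of the 13928 tested genes. The TAC and sham libraries did not overlap for 2 of the 6 actins in WT (Acta1 and Actc1, against 62.2% of all tested genes) and for 5 of the 6 in Piezo1-Cko (all but Actg1, against 56.4%).

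Genes that control, bind or fold actin were read from lists in the same fit, averaged over both genotypes unless said otherwise. Each named gene of the averaged comparison passed whichever library was left out, except where its loss is stated. Over all tested genes 11.9% rose and 13.5% fell in that comparison, with a median of 0.01 on the log2 scale. Of all tested genes 13.2% passed in WT and 1.49% in Piezo1-Cko. For a single genotype the number of passing genes rests on single libraries. Over all genes it was 1842 in WT and 74 without WT TAC replicate 1, and 208 in Piezo1-Cko and 0 without Cko sham replicate 1 or Cko sham replicate 2.

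The 15 transcription regulators comprised SRF, its coactivators, the RHOA and ROCK genes whose signalling frees these coactivators from actin monomers, and cardiac factors. Averaged over both genotypes 3 rose and 1 fell (1 and 1 without both libraries that stood apart), with a median log2 fold change of 0.19, and none passed in WT or in Piezo1-Cko alone. Srf had 24.6 and 26.4 FPKM after sham and 35.0 and 33.0 after TAC in WT, and 22.9 and 22.7 after sham and 28.1 and 19.4 after TAC in Piezo1-Cko. It was higher in both WT TAC libraries than in both WT sham libraries and overlapped in Piezo1-Cko, and it did not pass (log2 difference 0.22, limma adjusted p = 0.218). The 4 that passed, named after their values were seen, were Rhoa (0.38), Rock2 (0.47), Mef2c (0.31) and Nkx2-5 (-0.42) on the log2 scale. Each lost its call without at least 5 of the 8 libraries in turn, with limma adjusted p up to 0.0880, 0.0941, 0.117 and 0.115.

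Of 24 cytoskeletal genes known as targets of SRF and its coactivators, 11 rose and 1 fell (7 and 1 without both libraries that stood apart), with a median log2 fold change of 0.45. Itga5, the fibronectin receptor subunit, rose 1.79-fold (limma adjusted p = 0.00540). Myh9, a non-muscle myosin heavy chain, rose 1.50-fold (limma adjusted p = 0.00687). Pdlim5, a protein of the Z-disc, rose 1.66-fold (limma adjusted p = 0.0110). Vcl, vinculin, which ties actin to adhesion sites, rose 2.27-fold (limma adjusted p = 0.0154) and lost its call without Cko sham replicate 1 or Cko sham replicate 2 (adjusted p up to 0.0588). In WT 4 of the 24 passed, against 13.2% of all tested genes, and in Piezo1-Cko 1 did, against 1.49%. Of the members used in smooth muscle, Tpm2 was at -0.11, Cnn1 at 0.58 and Tagln at 0.09 on the log2 scale, none of them passing (limma adjusted p = 0.841, 0.533 and 0.865). Tpm2 passed as lower without WT sham replicate 1 (-0.57, limma adjusted p = 0.0411), and Cnn1 passed as higher without WT sham replicate 2, as stated above.

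Among 16 partners of actin in the cardiac thin filament and Z-disc, 2 rose and 4 fell (1 and 2 without both libraries that stood apart), with a median log2 fold change of -0.18. Tnnt2, the cardiac troponin T that links the troponin complex to tropomyosin, fell by 0.87 on the log2 scale (limma adjusted p = 0.00531). Tnni3, the inhibitory cardiac troponin I, fell by 1.30 (limma adjusted p = 0.00840). Xirp2, an actin-binding protein of the intercalated disc, rose 2.78-fold (limma adjusted p = 0.00872). Its relative Xirp1 rose 1.40-fold (limma adjusted p = 0.0334) and lost its call without any of 5 libraries, WT sham replicate 2, WT TAC replicate 1, Cko sham replicate 1, Cko sham replicate 2 or Cko TAC replicate 1 (adjusted p up to 0.117).

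Of 23 genes for monomer binding and filament turnover, 10 rose and 1 fell (6 and 1 without both libraries that stood apart), with a median log2 fold change of 0.38. Tmsb10, a thymosin that holds actin monomers, rose 1.64-fold (limma adjusted p = 0.00489). Capza1, a subunit of the protein that caps filament ends, rose 1.96-fold (limma adjusted p = 0.00574). Cfl1, the filament-severing protein cofilin, rose 1.64-fold (limma adjusted p = 0.00769). Lcp1, a filament-bundling protein of leukocytes, rose 2.30-fold (limma adjusted p = 0.00964). Gsn, gelsolin, which severs and caps filaments and is also among the 8 resting fibroblast markers, was the 1 that fell, by 1.11 on the log2 scale (limma adjusted p = 0.00615).

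Of 25 tested nucleation genes, 8 rose and 2 fell (4 and 0 without both libraries that stood apart), with a median log2 fold change of 0.26. Diaph3, a formin that elongates straight filaments, rose 2.37-fold (limma adjusted p = 0.00390). Arpc5, a subunit of the Arp2/3 complex that branches filaments, rose 1.59-fold (limma adjusted p = 0.00588). Of 16 tested genes that fold or modify actin, none rose and 4 fell (0 and 2 without both libraries that stood apart), with a median log2 fold change of -0.06. Pfdn5 and Pfdn6, subunits of the prefoldin complex that hands new actin to the chaperonin, fell by 0.76 (limma adjusted p = 0.00468) and by 0.80 (limma adjusted p = 0.00641) on the log2 scale.

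All 6 of 6 proliferation markers rose, and 9 of 10 macrophage and 13 of 16 activated fibroblast markers rose in the same libraries, with the values given above beside Actb and Acta2. The part of a changed number of such cells in the counts of cytoskeletal genes was not tested.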

How the data were processed

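RNA from mouse heart tissue was extracted with Trizol and 1 microgram of total RNA was made into libraries with the NEBNext Ultra RNA kit, per the labels' protocols. Per the submitters' processing notes, featureCounts 1.5.0-p3, Bowtie 0.12.2 and CASAVA 1.8 were used, and mm10 and mm8 are both named as builds without saying for what. Strand setting and treatment of multiply matching reads are not given in the sources used here.

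The authors deposited 1 table that is named as counts and holds FPKM, per the gene lengths in it. Multiplying by gene length gave, in each library, steps of equal size, and dividing by that step gave whole reads (100% of the values above 0, with a tolerance of 0.01 of a read). The library size behind the values was 0.886 to 1.10 times the read total, so the FPKM were scaled between samples. Mitochondrial genes held 17.6% to 24.4% of reads. Values per kilobase use the table's gene lengths, which for Actb is 2679 bases against 1920 in its main transcript.

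Genes with at least 0.5 FPKM and 10 reads in at least 2 libraries were fitted with limma 3.58.1 (R 4.3.3) on log2(FPKM + 0.5), 1 term per group over all 8 libraries (4 residual degrees of freedom), with trend and robust moderation. P-values are two-sided and Benjamini-Hochberg adjusted over 13928 genes in each of 6 comparisons, with a threshold of 0.05. Libraries of a group differed beyond counting noise (chi-square per degree of freedom 17.3 to 44.2), so none was a copy. The steps were tested on simulated data.

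The members and the 18 gene lists were chosen with earlier results of these data known. The members are named throughout. From each list the text takes examples among the up to 3 genes per direction with the smallest p that passed in either TAC comparison, and beside each member the 3 genes nearest in pattern with a mean of at least 1 FPKM. Sequences are from GENCODE M21 transcripts and RefSeq promoters (GRCm38.p6). Alternatives covered pseudocount, filter, scaling, limma-voom, gene type, a replicate block and libraries left out.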

Additional observations from a re-analysis of the deposited data

Results flagged for a closer look

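Actc1 was flagged because its libraries moved in opposite directions in the 2 genotypes. Every WT TAC library (4911 and 5468 FPKM) was above every WT sham library (4644 and 3937 FPKM), and every Cko TAC library (4843 and 4484 FPKM) was below every Cko sham library (4866 and 5075 FPKM). Such a lack of overlap, in either direction, was common: it held for 62.2% of all tested genes in WT and 56.4% in Piezo1-Cko. Read the other way, Piezo1-Cko was above WT under sham and below it under TAC, where 39.6% and 39.8% of all tested genes did not overlap. Both contrasts are the same interaction, which was -0.37 on the log2 scale (95% interval -0.99 to 0.25, limma adjusted p = 0.911) and ranged from -0.49 to -0.25 with 1 library left out. The difference between the genotypes in the response of Actc1 did not pass the test.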

How the results depend on the processing

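Acta1 averaged over both genotypes passed under all 18 alternatives tried, with log2 fold changes of 2.67 to 3.59, all of the same sign. Acta2 and Actg2, which did not pass with all libraries, were not stable in sign in WT. With 1 library left out their WT log2 differences ranged from -1.45 to 0.72 and from -1.99 to 0.67. The number of actins passing in WT, 1, was 0 when low genes were kept, 0 with limma-voom on the recovered reads and 0 with the 4 libraries of the comparison alone. Acta1 lost its WT call without any 1 WT library. Without WT sham replicate 1 the actins that passed in WT were Acta2 (-1.45 on the log2 scale) and Actg2 (-1.99), both lower after TAC. In Piezo1-Cko the number of passing actins was 0 as reported, 1 with scaling to the total without mitochondrial reads and 2 with the 4 libraries alone. Averaged over both genotypes it was 1 to 2 with 1 library left out. Between genotypes and in the interaction it was 0 under every alternative. Libraries with the same replicate number deviated together only weakly across groups (correlations 0.0256 to 0.248, all of them positive, 2 of 6 over 0.1). These values do not settle whether the numbers pair libraries. With the replicate number as a block, 1 actin passed in Piezo1-Cko, Acta1 (adjusted p = 0.0349). Over all genes the passing counts ranged, with 1 library left out and under the other alternatives, from 74 to 2113 and from 1 to 2323 in WT (1842 as reported), from 0 to 378 and from 0 to 420 in Piezo1-Cko (208), and from 1329 to 3672 and from 1796 to 4273 averaged (3537). Under sham they were 1 to 4 and 1 to 3 (3), under TAC 0 to 18 and 0 to 1 (0), and in the interaction 1 to 3 and 1 to 2 (1). The cause of these shifts was not tested. Actg2, with as few as 20 reads in a library, has the least depth of the 6.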
